A study of Mus musculus with 33 samples.

Results

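Axon guidance ligands and receptors were followed in differentiating P19 cells, a mouse embryonal carcinoma line obtained from ATCC. All symbols of the table that begin with Sema and a digit, Plxn, Epha, Ephb, Efna, Efnb, Slit, Robo or Unc5 were taken, with Nrp1, Nrp2, Ntn1, Ntn4, Ntng1, Ntng2, Dcc, Neo1, Rgma, Rgmb and Draxin, which gave 71 of 14717 genes. They are 38 ligands and 32 receptors, and Unc50, an intracellular membrane protein that shares only letters with the Unc5 receptors. Of the 71 genes, 69 had a mean of at least 5 CPM (counts scaled to library size) in 1 or more groups. RNA was sequenced in 15 libraries. The cells of D3RA and D6RA were differentiated with all-trans retinoic acid (RA) at 1 µM, the known route of this line to neurons, and labelled day 3 and day 6. The cells of D3DMSO and D6DMSO were differentiated with 1% dimethyl sulfoxide (DMSO), its route to mesoderm and heart muscle, and labelled with the same days, and D0 is undifferentiated cells. Treated cells grew as embryoid bodies in bacteriological dishes for 2 days and then in flasks with maintenance medium, and whether RA or DMSO was present in the flasks is not stated. Each group has 3 libraries, called biological replicates, but separate cultures are not stated. The p-values thus reflect only how far these samples differ within groups, pooled over all groups, and this spread may be technical in origin.

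Growing axons are steered by ligands that attract or repel the growth cone. Netrins act through Dcc and neogenin for attraction and through Unc5 receptors for repulsion, Slits repel through Robo receptors, semaphorins act through plexins with or without neuropilins, and ephrins and Eph receptors signal at contacts between cells. The same families shape blood vessels, heart and epithelia, and several members are best known there.

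The promoters of 4 receptors with large differences between the treatments are shown first, Epha3 and Robo3, which were higher with RA at both days, and Epha1 and Unc5b, which were lower at both. Each is the 250 bases before the RefSeq start on GRCm38.p6, read 5′ to 3′ in the direction of transcription from the minus strand. Capitals mark GGGCGG, the GC box, on either strand (as CCGCCC on the other), where a pair of matches in Robo3 overlap. They would also mark AGGTCA, the core element of nuclear receptors, which none of the 4 holds.
Epha3 chr16:63864176-63864425: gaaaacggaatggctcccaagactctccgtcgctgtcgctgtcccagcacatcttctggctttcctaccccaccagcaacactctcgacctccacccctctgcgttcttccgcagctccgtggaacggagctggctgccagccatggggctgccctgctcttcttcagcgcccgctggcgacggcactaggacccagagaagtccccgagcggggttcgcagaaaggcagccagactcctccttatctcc
Robo3 chr9:37433176-37433425: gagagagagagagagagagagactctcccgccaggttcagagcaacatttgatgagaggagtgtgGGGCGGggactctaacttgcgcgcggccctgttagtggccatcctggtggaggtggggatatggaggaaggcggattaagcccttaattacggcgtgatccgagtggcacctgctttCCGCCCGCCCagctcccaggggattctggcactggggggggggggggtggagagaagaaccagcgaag
Epha1 chr6:42373269-42373518: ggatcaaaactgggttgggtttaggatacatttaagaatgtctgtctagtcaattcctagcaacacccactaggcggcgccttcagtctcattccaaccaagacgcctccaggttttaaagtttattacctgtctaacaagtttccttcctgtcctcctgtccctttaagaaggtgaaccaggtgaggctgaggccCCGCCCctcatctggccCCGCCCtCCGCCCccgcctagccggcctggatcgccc
Unc5b chr10:60831582-60831831: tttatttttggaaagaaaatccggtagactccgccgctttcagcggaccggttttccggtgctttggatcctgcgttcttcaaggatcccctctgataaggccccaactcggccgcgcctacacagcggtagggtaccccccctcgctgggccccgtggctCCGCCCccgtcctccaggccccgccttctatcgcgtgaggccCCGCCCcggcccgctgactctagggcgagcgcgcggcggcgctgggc
The Epha3 promoter holds 0 GC boxes, while those of Robo3, Epha1 and Unc5b hold 3, 3 and 2. Of the 71 genes, 60 were matched by symbol to a RefSeq promoter, and 46 of them (76.7%) hold GGGCGG on either strand, against 65.5% of the promoters matched to genes of the table and 35.4% of all 27025. The promoters matched cover 10355 of the 14228 genes of the table with a symbol. AGGTCA was found in 10 of 60 (16.7%), against 12.5% and 15.8% in the same sets. The longer spacings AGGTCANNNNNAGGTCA, AGGTCANNAGGTCA and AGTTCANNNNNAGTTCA, searched on both strands, have 0 matches among the 60 promoters, and are in 0.0111%, 0.0074% and 0.0259% of all 27025. These are matches of letters in a short window.

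Total counts were 3.55 to 9.82 M in D3RA, 5.86 to 6.87 M in D3DMSO, 38.2 to 49.6 M for D6RA, 39.0 to 44.5 M for D6DMSO, and 7.13 to 9.88 M for D0. Mitochondrial genes had 0 counts in D3 and D0 and took 41.6 to 42.6% of D6RA and 49.8 to 55.8% of D6DMSO, so a change between days and a change in the make-up of the libraries cannot be told apart. The same 4 non-mitochondrial genes took 1.97 to 45.7% of the remaining counts in D3RA, 3.09 to 32.8% in D3DMSO, 0.528 to 1.70% in D6RA, 0.572 to 1.27% in D6DMSO and 8.86 to 23.2% in D0. In replicates 1, 2 and 3 their shares were 1.97, 39.5 and 45.7% for D3RA, and 3.09, 32.8 and 24.0% for D3DMSO. Marker lists were checked against the groups. Pluripotency markers, 8 of 10 in the table, summed to 9.65 to 11.9 CPM in D3RA, 603 to 1166 CPM in D3DMSO, 3.15 to 4.10 CPM in D6RA, 79.3 to 97.1 CPM in D6DMSO and 1965 to 2270.1 CPM in D0. The 17 neuron markers summed to 1205 to 1509.7 CPM in D3RA against 180.2 to 242 CPM in D3DMSO. At D6 they summed to 3946 to 4209.6 CPM in D6RA against 52.8 to 60.3 CPM in D6DMSO. In D0 their sum was 394 to 431 CPM, above both DMSO groups. Of the primitive streak and mesoderm markers, 8 of 10 are in the table and summed to 3.58 to 5.48 CPM in D3RA against 1484 to 1592 CPM in D3DMSO. Cardiac markers, 8 of 11, summed to 21.4 to 24.5 CPM in D6RA against 240.0 to 362 CPM in D6DMSO, with Tnnt2 at 0 counts in D3RA. In bulk RNA, fewer cells of a type and less RNA per cell cannot be told apart.

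With RA, more guidance genes were higher than lower at both days. Higher or lower with RA means against DMSO of the same day, unless D0 is named. At D3, 38 of the 71 were higher in D3RA than in D3DMSO and 21 lower by limma (adjusted p below 0.05, by the Benjamini-Hochberg method over the whole table), and 12 were not called. Over all genes, 30.7% were higher and 31.4% lower. At D6, 42 were higher in D6RA than in D6DMSO and 16 lower, with 13 not called, against 32.6% and 33.1% of all genes. The median log2 fold change of the 71 was 0.64 at D3 and 0.98 at D6, beside medians of -0.01 and -0.02 over all genes. Receptors and ligands differed in their counts at D3, where 21 of 32 receptors were higher and 7 lower, while 17 of 38 ligands were higher and 14 lower. At D6 the counts were 21 higher and 8 lower among receptors and 21 higher and 8 lower among ligands. The difference between these counts was not tested.

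**Figure D1:**
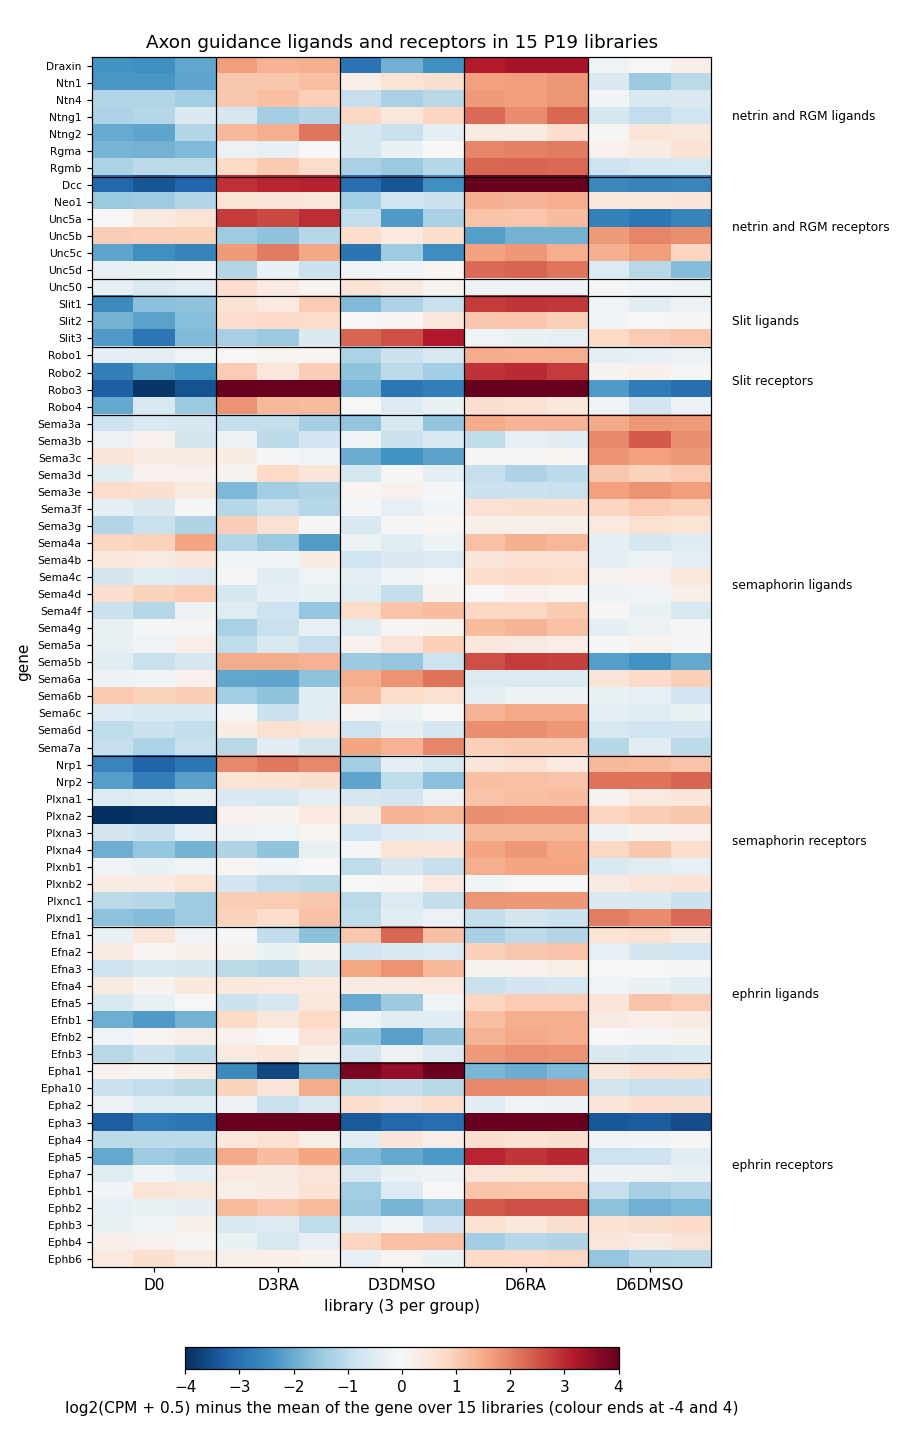
Level of each of the 71 genes in each of the 15 libraries, as log2(CPM + 0.5) less the mean of the gene over all libraries, with genes in rows grouped by family and role and the libraries of 5 groups in columns. Red is above and blue below the mean of the gene, and the D6RA columns are red for most netrin, Slit and ephrin family genes, among them Dcc, Robo3 and Epha3, while Epha1 is red in D3DMSO.

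Dcc, the receptor through which netrins attract axons, was nearly absent without RA. It was at 39.9, 43.6 and 44.3 CPM in D3RA, against 0.138, 0 and 0.465 CPM in D3DMSO. At D6 Dcc was at 306, 308 and 288 CPM in D6RA, against 0.395, 0.336 and 0.350 CPM in D6DMSO, and at 0.103, 0 and 0.0946 CPM in D0. The groups stood far apart, and the D6RA libraries were above the D3RA ones. Its log2 fold change (± SE, as in all that follow) was 7.56 ± 0.42 (adjusted p = 1.46e-10) at D3 and 9.62 ± 0.42 (adjusted p = 3.74e-12) at D6 by limma. The D3 value rests on 4 counts in D3DMSO and was 8.19 without D3DMSO replicate 3. Neo1, neogenin, the receptor that netrins share with the repulsive guidance molecules, was at 192, 184 and 182 CPM in D3RA, against 50.4, 75.3 and 73.3 CPM in D3DMSO. At D6 Neo1 was at 365, 341 and 366 CPM in D6RA, against 176, 182 and 186 CPM in D6DMSO. It was present in each group, with no overlap between treatments at either day and log2 fold changes of 1.51 ± 0.12 (adjusted p = 8.55e-09) at D3 and 0.98 ± 0.12 (adjusted p = 1.18e-06) at D6.

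The 4 Unc5 receptors, which turn the response to netrin into repulsion, each had a pattern of its own. Unc5a was at 63.6, 57.3 and 71.3 CPM in D3RA, against 4.14, 1.44 and 3.25 CPM in D3DMSO, and at D6 at 19.9, 19.6 and 21.2 CPM in D6RA, against 0.921, 0.756 and 0.963 CPM in D6DMSO. It was higher with RA at both days, by 4.52 ± 0.27 (adjusted p = 3.02e-10) and 4.50 ± 0.27 (adjusted p = 1.91e-10) on the log2 scale. Unc5b, which is also a receptor of endothelial cells, went the other way, at 17.9, 15.6 and 21.9 CPM in D3RA, against 80.4, 63.4 and 79.6 CPM in D3DMSO. At D6 Unc5b was at 10.2, 12.7 and 12.8 CPM in D6RA, against 159, 188 and 177 CPM in D6DMSO. No library of one treatment came near the other, and the log2 fold changes were -2.01 ± 0.12 (adjusted p = 5.41e-10) and -3.88 ± 0.12 (adjusted p = 7.14e-14). Unc5c was at 25.2, 33.2 and 22.8 CPM in D3RA, against 0.552, 2.46 and 0.929 CPM in D3DMSO, while at D6 it was at 23.9, 26.0 and 21.2 CPM in D6RA, against 21.0, 24.7 and 14.0 CPM in D6DMSO. The treatments were thus apart at D3 (log2 fold change 4.52 ± 0.37 (adjusted p = 1.98e-08)) and overlapped at D6 (0.29 ± 0.37 (adjusted p = 0.518)). Unc5d was low at D3, at 1.06 ± 0.512 CPM in D3RA, against 1.94 ± 0.202 CPM in D3DMSO (SD, n = 3 each), and at D6 was at 11.6 ± 0.805 CPM in D6RA, against 0.721 ± 0.484 CPM in D6DMSO. Its D6 log2 fold change was 4.20 ± 0.43 (adjusted p = 1.74e-07). At D3 the adjusted p was 0.0956, and it ranged from 0.0318 to 0.355 over 15 alternatives, with a call without D3RA replicate 2.

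Of the 7 netrin and RGM ligands, with Draxin counted among them, 5 were higher and 1 lower in D3RA, and 6 were higher in D6RA. The shares of all genes were 30.7% and 31.4% at D3, and 32.6% higher at D6. Ntn1, the netrin of the floor plate, was at 53.0, 54.1 and 58.0 CPM in D3RA, against 30.2, 37.2 and 39.3 CPM in D3DMSO. At D6 Ntn1 was at 79.6, 81.5 and 86.0 CPM in D6RA, against 16.6, 8.57 and 11.7 CPM in D6DMSO, and in D0 at 4.62, 4.56 and 5.48 CPM. The D3 libraries came close to each other (log2 fold change 0.64 ± 0.17 (adjusted p = 0.00404)), those of D6 did not (2.79 ± 0.17 (adjusted p = 2.86e-10)). The D3 call was lost on thinning to the smallest library, and its adjusted p ranged from 0.00140 to 0.0707 over 15 alternatives. Draxin, a secreted repellent that binds Dcc and netrin, was at 35.6, 29.0 and 29.7 CPM in D3RA, against 0.967, 2.46 and 1.55 CPM in D3DMSO. At D6 Draxin was at 103, 111 and 110.2 CPM in D6RA, against 9.73, 10.8 and 12.6 CPM in D6DMSO. Both days were without overlap, at 4.27 ± 0.24 (adjusted p = 1.26e-10) and 3.30 ± 0.24 (adjusted p = 2.05e-09) on the log2 scale.

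Ntn4, a netrin of basement membranes, was higher in D3RA by 2.33 and in D6RA by 2.23 on the log2 scale. Rgmb, a membrane-anchored ligand of neogenin, was higher by 2.201 and 3.05 on that scale. Its relative Rgma was at 19.2 ± 2.42 CPM in D3RA, against 17.8 ± 4.38 CPM in D3DMSO (SD, n = 3 each), where it was not called (adjusted p = 0.447), and at 89.4 ± 3.94 CPM in D6RA, against 28.1 ± 4.24 CPM in D6DMSO. The netrin-G proteins Ntng1 and Ntng2, which are anchored to the membrane and do not bind Dcc, were unlike the other ligands. Ntng2 was higher in D3RA (2.58 ± 0.40 (adjusted p = 3.10e-05)) and at D6 was at 3.40 ± 0.529 CPM in D6RA, against 3.09 ± 0.595 CPM in D6DMSO, which was not called (adjusted p = 0.774). Ntng1 changed direction between the days and is described with the semaphorins.

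All 4 Robo receptors were higher in D3RA and 3 of 4 in D6RA, beside 30.7% and 32.6% of all genes. Robo3, which commissural neurons need to cross the midline, was at 156, 165 and 183 CPM in D3RA, against 2.21, 0.821 and 0.929 CPM in D3DMSO. At D6 Robo3 was at 234, 265 and 238 CPM in D6RA, against 1.53, 0.924 and 0.700 CPM in D6DMSO, with 0.513, 0.157 and 0.378 CPM in D0. All RA libraries were far above all others, and the log2 fold changes were 7.03 ± 0.34 (adjusted p = 2.90e-11) and 7.91 ± 0.34 (adjusted p = 3.39e-12). Robo1, a Slit receptor, was at 119, 126 and 124 CPM in D3RA, against 48.1, 64.5 and 73.9 CPM in D3DMSO, and at D6 at 327, 318 and 322 CPM in D6RA, against 88.2, 93.4 and 98.0 CPM in D6DMSO. Robo2, also a Slit receptor, was at 21.4, 14.3 and 21.0 CPM in D3RA, against 3.04, 4.72 and 3.72 CPM in D3DMSO, and at D6 at 81.0, 84.8 and 75.3 CPM in D6RA, against 11.6, 12.1 and 9.93 CPM in D6DMSO. Both were higher with no overlap at either day, Robo1 by 1.01 ± 0.11 (adjusted p = 6.87e-07) and 1.79 ± 0.11 (adjusted p = 3.16e-10) and Robo2 by 2.29 ± 0.20 (adjusted p = 5.12e-08) and 2.84 ± 0.20 (adjusted p = 2.03e-09). Robo4, a receptor of endothelial cells, was at 6.34 ± 1.45 CPM in D3RA, against 1.57 ± 0.351 CPM in D3DMSO (log2 fold change 1.97 ± 0.51 (adjusted p = 0.00294)). At D6 it was at 3.15 ± 0.316 CPM in D6RA, against 1.46 ± 0.438 CPM in D6DMSO, with an adjusted p of 0.0592 and a range of 4.51e-04 to 0.562 over 15 alternatives.

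The 3 Slit ligands did not move together. Slit2 was at 132, 139 and 137 CPM in D3RA, against 84.2, 86.8 and 112 CPM in D3DMSO. At D6 Slit2 was at 174, 177 and 161 CPM in D6RA, against 76.0, 82.7 and 84.9 CPM in D6DMSO. The treatments were apart at both days, with log2 fold changes of 0.54 ± 0.11 (adjusted p = 5.15e-04) and 1.07 ± 0.11 (adjusted p = 2.35e-07). Slit3 was at 6.10, 5.54 and 10.5 CPM in D3RA, against 83.1, 98.7 and 153 CPM in D3DMSO. At D6 Slit3 was at 14.0, 13.3 and 12.7 CPM in D6RA, against 28.2, 32.9 and 35.2 CPM in D6DMSO. It was lower with RA at both days, with log2 fold changes of -3.90 ± 0.28 (adjusted p = 4.01e-09) and -1.26 ± 0.28 (adjusted p = 8.96e-04), and D3DMSO was the group with the highest levels. Slit1, which was scarce in D0 at 0.614 ± 0.356 CPM (SD, n = 3), was higher with RA at 6.07 ± 1.51 CPM in D3RA, against 1.21 ± 0.507 CPM in D3DMSO and at 28.6 ± 0.534 CPM in D6RA, against 2.90 ± 0.321 CPM in D6DMSO.

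**Figure D2:**
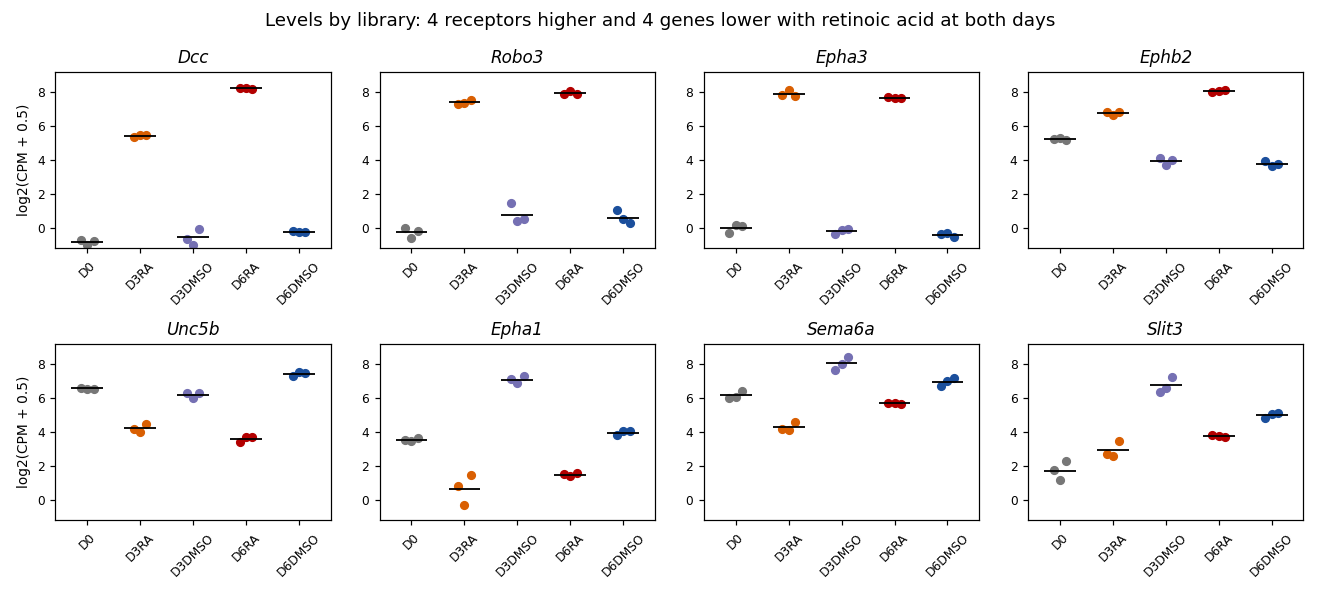
Level of 8 genes in each library as log2(CPM + 0.5), with a point for each of the 3 libraries of a group and a line at their mean. The upper row holds Dcc, Robo3, Epha3 and Ephb2, whose RA libraries lie above the DMSO libraries of the same day, and the lower row Unc5b, Epha1, Sema6a and Slit3, whose RA libraries lie below.

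Among the 12 Eph receptors, which are tyrosine kinases, 7 were higher and 3 lower in D3RA, and 8 were higher and 3 lower in D6RA. The shares of all genes were 30.7% and 31.4% at D3, and 32.6% and 33.1% at D6. Epha3 was at 226, 278 and 220.2 CPM in D3RA, against 0.276, 0.411 and 0.465 CPM in D3DMSO. At D6 Epha3 was at 211, 200.4 and 204 CPM in D6RA, against 0.263, 0.294 and 0.175 CPM in D6DMSO, and in D0 it was at 0.308, 0.629 and 0.567 CPM. It was present with RA and nearly absent elsewhere, and the log2 fold changes were 9.04 ± 0.26 (adjusted p = 5.14e-14) and 9.62 ± 0.26 (adjusted p = 7.23e-15). These values of Epha3 rest on 7 counts in D3DMSO and 17 counts in D6DMSO. Epha1, the member typical of epithelia, was its opposite, at 1.28, 0.326 and 2.28 CPM in D3RA, against 139, 117 and 159 CPM in D3DMSO. At D6 Epha1 was at 2.38, 2.13 and 2.54 CPM in D6RA, against 13.8, 16.1 and 16.3 CPM in D6DMSO, and at 11.1, 10.7 and 12.1 CPM in D0. Its log2 fold change was -6.87 ± 0.37 (adjusted p = 8.49e-11) at D3, which was -6.24 without D3RA replicate 2, and -2.70 ± 0.37 (adjusted p = 5.51e-06) at D6.

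Ephb2, which in mouse guides axons of the anterior commissure, was at 114, 101 and 114 CPM in D3RA, against 16.6, 12.5 and 15.6 CPM in D3DMSO. At D6 Ephb2 was at 256, 274 and 274 CPM in D6RA, against 14.7, 11.8 and 13.1 CPM in D6DMSO. The RA libraries were higher by 2.88 ± 0.10 (adjusted p = 6.61e-13) and 4.34 ± 0.10 (adjusted p = 1.61e-15) on the log2 scale, with no overlap. Epha4, which binds ephrins of both classes, was at 174, 201 and 153 CPM in D3RA, against 96.2, 182 and 156 CPM in D3DMSO, where the libraries overlapped. At D6 they did not, at 208, 195 and 203 CPM in D6RA, against 118, 121 and 126 CPM in D6DMSO. It was called at D6 (0.73 ± 0.16 (adjusted p = 5.89e-04)) and not at D3 (adjusted p = 0.0835), where its adjusted p ranged from 0.00696 to 0.627 over 15 alternatives, with calls without D3DMSO replicate 2 and without D3RA replicate 3. Ephb4, the Eph receptor of veins, was at 64.4, 49.8 and 62.6 CPM in D3RA, against 143, 177 and 176 CPM in D3DMSO. At D6 Ephb4 was at 30.2, 35.1 and 33.9 CPM in D6RA, against 107, 99.6 and 112 CPM in D6DMSO. It was lower with RA at both days, with log2 fold changes of -1.49 ± 0.10 (adjusted p = 2.38e-09) and -1.68 ± 0.10 (adjusted p = 3.06e-10).

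The remaining Eph receptors kept their direction where they were called. Epha5 was at 14.6 ± 1.93 CPM in D3RA, against 0.848 ± 0.244 CPM in D3DMSO and at 42.8 ± 3.00 CPM in D6RA, against 2.94 ± 0.561 CPM in D6DMSO. Epha10, whose kinase domain is inactive, was at 7.76 ± 2.93 CPM in D3RA, against 1.52 ± 0.124 CPM in D3DMSO and at 14.8 ± 0.454 CPM in D6RA, against 1.82 ± 0.138 CPM in D6DMSO. Both were called higher at each day, as were Epha7 (log2 fold changes 0.81 and 0.76), Ephb1 (1.13 and 2.45) and Ephb6 (0.36 and 2.21), another member without kinase activity. The D3 value of Ephb1 was 0.71 without D3DMSO replicate 1. The D3 call of Ephb6 (adjusted p = 0.0462) was lost in 9 alternatives, with a range of 0.0105 to 0.150 over 15 alternatives. Epha2 was lower at both days (log2 fold changes -1.25 and -0.88), and Ephb3 was called at neither day (adjusted p = 0.184 and 0.597), although it was called without D3DMSO replicate 3, in a range of 0.0346 to 0.673 over 15 alternatives.

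The transmembrane B ephrins were all higher with RA at both days. Efnb1 was at 46.0, 35.5 and 45.2 CPM in D3RA, against 23.1, 18.9 and 19.4 CPM in D3DMSO, and at D6 at 60.9, 72.4 and 72.0 CPM in D6RA, against 33.4, 31.0 and 33.8 CPM in D6DMSO. Efnb2, the ligand of Ephb4 in arteries, was at 74.0, 66.8 and 94.1 CPM in D3RA, against 21.1, 14.2 and 21.5 CPM in D3DMSO, and at D6 at 168, 187 and 179 CPM in D6RA, against 65.5, 67.9 and 71.8 CPM in D6DMSO. No libraries overlapped, and log2 fold changes were 1.04 ± 0.13 (adjusted p = 2.17e-06) and 1.06 ± 0.13 (adjusted p = 1.25e-06) for Efnb1, and 2.05 ± 0.15 (adjusted p = 2.97e-09) and 1.38 ± 0.15 (adjusted p = 2.78e-07) for Efnb2. Efnb3, a ligand of midline tissue, was higher by 0.90 and 2.46 on the log2 scale.

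The lipid-anchored A ephrins were mixed. Efna1 was at 2.37, 0.977 and 0.457 CPM in D3RA, against 5.80, 14.0 and 6.20 CPM in D3DMSO, and at D6 at 0.695, 0.942 and 0.814 CPM in D6RA, against 3.86, 4.03 and 3.28 CPM in D6DMSO. Both days were lower with RA without overlap, with log2 fold changes of -2.70 ± 0.41 (adjusted p = 2.68e-05) and -2.17 ± 0.41 (adjusted p = 1.94e-04). Efna3 was at 2.82, 2.61 and 3.65 CPM in D3RA, against 19.6, 23.8 and 16.4 CPM in D3DMSO. At D6 Efna3 was at 7.08, 7.33 and 7.67 CPM in D6RA, against 6.36, 6.38 and 6.21 CPM in D6DMSO, a difference that was not called (0.22 ± 0.17 (adjusted p = 0.282)), whereas that of D3 was (-2.66 ± 0.17 (adjusted p = 1.03e-09)). Efna5 was at 3.37, 3.91 and 9.14 CPM in D3RA, against 1.24, 2.05 and 5.73 CPM in D3DMSO, and at D6 at 12.2, 13.7 and 13.5 CPM in D6RA, against 9.56, 14.95 and 13.5 CPM in D6DMSO. Its libraries overlapped at both days and it was not called at either (1.00 ± 0.43 (adjusted p = 0.0522) and 0.08 ± 0.43 (adjusted p = 0.888)). With the replicate number as a block its D3 adjusted p was 0.00948, in a range of 0.00108 to 0.282 over 15 alternatives, with calls also on thinning, without D3DMSO replicate 3 and without D3RA replicate 1. Efna2 was higher with RA at both days (log2 fold changes 0.71 and 1.78), but lost the D3 call on thinning, in a range of 6.14e-04 to 0.167 over 15 alternatives. Efna4 was called only at D6, where it was lower (log2 fold change -0.55 ± 0.12 (adjusted p = 6.12e-04)), and was at 16.1 ± 0.190 CPM in D3RA, against 15.5 ± 0.311 CPM in D3DMSO at D3 (adjusted p = 0.668).

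Of the 20 semaphorin ligands, 6 were higher and 10 lower in D3RA, and 9 were higher and 5 lower in D6RA. The shares of all genes were 30.7% and 31.4% at D3, and 32.6% and 33.1% at D6. The 6 higher at D3 were thus near the share of all genes. Sema5b, a transmembrane semaphorin with thrombospondin repeats, was at 28.7, 29.0 and 26.9 CPM in D3RA, against 3.31, 3.08 and 5.42 CPM in D3DMSO. At D6 Sema5b was at 62.1, 72.9 and 69.1 CPM in D6RA, against 1.75, 1.47 and 2.06 CPM in D6DMSO. The treatments were apart at both days, with log2 fold changes of 2.86 ± 0.19 (adjusted p = 1.50e-09) and 5.27 ± 0.19 (adjusted p = 3.51e-13). Sema6a, a transmembrane ligand of A plexins, was at 17.7, 17.3 and 23.8 CPM in D3RA, against 208, 265 and 344 CPM in D3DMSO. At D6 Sema6a was at 52.0, 51.4 and 51.4 CPM in D6RA, against 106, 128 and 147 CPM in D6DMSO. All RA libraries were below all DMSO libraries, with log2 fold changes of -3.77 ± 0.17 (adjusted p = 7.82e-12) and -1.29 ± 0.17 (adjusted p = 2.91e-06). Its relatives were unlike it, since Sema6d was higher by 1.12 and 2.598 on the log2 scale, and Sema6b was lower at D3 (log2 fold change -2.15 ± 0.28 (adjusted p = 4.17e-06)) and at D6 was at 5.72 ± 0.457 CPM in D6RA, against 4.99 ± 0.990 CPM in D6DMSO (adjusted p = 0.519). Sema5a was lower at D3 (log2 fold change -1.45 ± 0.19 (adjusted p = 3.95e-06)), and at D6 was at 17.3 ± 0.998 CPM in D6RA, against 13.8 ± 0.946 CPM in D6DMSO (adjusted p = 0.134, range 0.00410 to 0.552 over 15 alternatives). Sema4b was higher by 0.65 and 0.88 on the log2 scale. Sema4c was called only at D6 (0.49 ± 0.12 (adjusted p = 0.00145)), where thinning ended the call, in a range of 3.43e-05 to 0.0736 over 15 alternatives. Sema4d, a ligand of Plxnb1, was called at neither day (adjusted p = 0.958 and 0.630), as was Unc50 (0.862 and 0.725).

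The secreted class 3 semaphorins, which signal mainly through neuropilins, were highest in D6DMSO for 6 of 7 genes, against 18.9% of all genes. The grouping was made after their values were seen. Sema3a was at 8.56, 8.47 and 6.39 CPM in D3RA, against 5.39, 10.7 and 5.27 CPM in D3DMSO. At D6 Sema3a was at 48.5, 44.1 and 43.9 CPM in D6RA, against 49.1, 56.9 and 56.3 CPM in D6DMSO, so that both treatments had more of it than at D3 but it was called between treatments at neither day (0.22 ± 0.20 (adjusted p = 0.371) and -0.25 ± 0.20 (adjusted p = 0.296)). Its adjusted p ranged from 0.00238 to 0.879 over 15 alternatives at D3, with a call without D3DMSO replicate 2, and from 0.00894 to 0.462 over 15 alternatives at D6, with calls by the fit of the compared groups alone and by voom weights. Sema3b was at 1.55, 0.651 and 0.914 CPM in D3RA, against 1.66, 0.821 and 1.08 CPM in D3DMSO, where the libraries overlapped. At D6 Sema3b was at 0.695, 1.43 and 1.28 CPM in D6RA, against 8.64, 12.8 and 8.14 CPM in D6DMSO, which was lower with RA (log2 fold change -3.13 ± 0.39 (adjusted p = 1.74e-06)). Sema3e, which binds Plxnd1 without a neuropilin, was at 1.37, 1.95 and 2.28 CPM in D3RA, against 6.21, 6.77 and 5.58 CPM in D3DMSO. At D6 Sema3e was at 3.05, 3.03 and 2.94 CPM in D6RA, against 19.5, 21.8 and 20.1 CPM in D6DMSO. It was lower with RA at both days without overlap, with log2 fold changes of -1.67 ± 0.20 (adjusted p = 1.39e-06) and -2.76 ± 0.20 (adjusted p = 1.86e-09). Sema3f, the typical ligand of Nrp2, was lower at D3 (log2 fold change -0.92 ± 0.14 (adjusted p = 2.20e-05)), and at D6 was at 21.2 ± 0.543 CPM in D6RA, against 26.4 ± 1.59 CPM in D6DMSO with an adjusted p of 0.0513 in a range of 7.56e-04 to 0.162 over 15 alternatives. Sema3g was at 2.25 ± 0.864 CPM in D3RA, against 1.11 ± 0.368 CPM in D3DMSO and, with libraries that overlapped, was called higher at D3 (adjusted p = 0.0182, range 0.00567 to 0.0922 over 14 alternatives). That call was lost on thinning, in the fit of the compared groups alone, and without D3DMSO replicate 1 or D3RA replicate 1. Smooth muscle and fibroblast markers, 11 of 12 in the table, were also high in D6DMSO, where they summed to 21.8 to 27.6 CPM in D6RA against 619 to 755 CPM in D6DMSO. Visceral or parietal endoderm markers, 5 of 9 in the table, had the same order, at 118 to 138 CPM in D6RA against 597 to 640 CPM in D6DMSO. Endothelial and cardiac markers also had it. The part of these lists in the class 3 values was not tested.

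The difference between treatments changed direction between D3 and D6 for 13 of the 71 genes, called in opposite directions at the 2 days, against 7.78% of all genes. On thinning to the smallest library the count was 7, against 4.51% of all genes, because Nrp1, Plxna4, Sema3d, Sema4a, Sema4f and Sema6c were then called at 1 day only. Of the 13, 12 are semaphorins or their receptors, which are 30 of the 71 genes, and 1 is among the other 41. Nrp1, Nrp2, Plxnd1, Sema3c and Sema3d were higher in D3RA and lower in D6RA (5 genes, 4.42% of all genes). Ntng1, Plxna2, Plxna4, Sema4a, Sema4f, Sema4g, Sema6c and Sema7a were lower in D3RA and higher in D6RA (8 genes, 3.36%). By the interaction term of limma, which takes the D3 difference between treatments off the D6 one, 35 of the 71 genes were higher and 15 lower. The shares of all genes were 25.4% and 23.1%. All 13 were among the genes called. This nearly follows from their choice by opposite calls in the same fit, so it is no separate support.

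**Figure D3:**
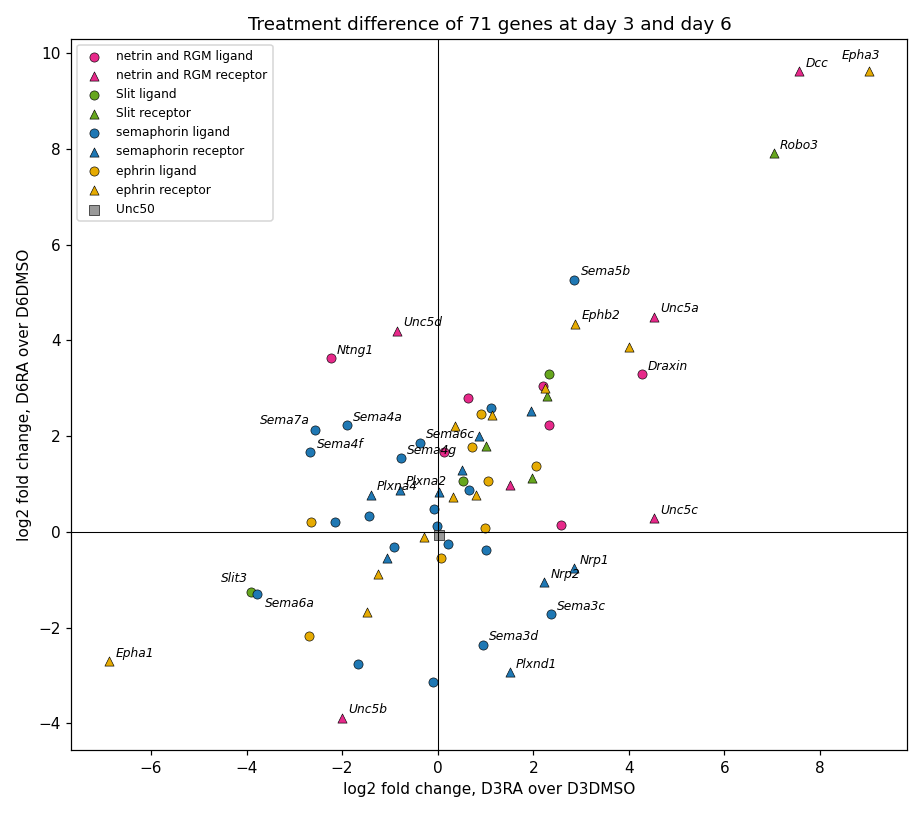
Log2 fold change between treatments of the 71 genes at D3 (horizontal axis) and at D6 (vertical axis), with colour by family and circles for ligands and triangles for receptors. Dcc, Epha3 and Robo3 lie at the upper right and Epha1 and Unc5b at the lower left, and the 13 genes of opposite direction lie at the upper left and lower right.

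Nrp1, the neuropilin that receives Sema3a and vascular endothelial growth factor, was at 77.8, 88.6 and 76.7 CPM in D3RA, against 7.32, 15.2 and 12.5 CPM in D3DMSO. At D6 Nrp1 was at 28.2, 30.6 and 26.2 CPM in D6RA, against 49.5, 48.9 and 44.99 CPM in D6DMSO, and in D0 at 2.77, 1.73 and 2.27 CPM. D3RA was the highest group, and within D6 the DMSO libraries were above the RA ones, with log2 fold changes of 2.85 ± 0.20 (adjusted p = 3.16e-09) and -0.76 ± 0.20 (adjusted p = 0.00364). Thinning ended the D6 call, in a range of 6.79e-07 to 0.116 over 15 alternatives. Nrp2 was at 62.3, 62.9 and 66.7 CPM in D3RA, against 9.39, 20.5 and 13.01 CPM in D3DMSO. At D6 Nrp2 was at 98.9, 96.3 and 93.8 CPM in D6RA, against 191, 192 and 217 CPM in D6DMSO. Both treatments had more Nrp2 at D6, and D6DMSO had the most, so the log2 fold change was 2.23 ± 0.20 (adjusted p = 6.21e-08) at D3 and -1.05 ± 0.20 (adjusted p = 2.05e-04) at D6. Plxnd1, a plexin of developing vessels, was at 86.0, 72.3 and 101 CPM in D3RA, against 22.0, 32.2 and 38.3 CPM in D3DMSO. At D6 Plxnd1 was at 22.8, 26.9 and 24.6 CPM in D6RA, against 185, 167 and 218 CPM in D6DMSO. The order of the treatments was opposite at the 2 days without overlap at either, with log2 fold changes of 1.51 ± 0.17 (adjusted p = 7.64e-07) and -2.93 ± 0.17 (adjusted p = 1.16e-10).

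Endothelial markers, 12 of 13 in the table and none of them among the 71 genes, had the same order of treatments at each day as Nrp1, Nrp2 and Plxnd1. They summed to 271 to 347 CPM in D3RA against 77.1 to 104 CPM in D3DMSO, and to 32.6 to 42.9 CPM in D6RA against 247 to 282 CPM in D6DMSO. Of the 12, 10 were called higher and 1 lower in D3RA, and 9 lower in D6RA, and Emcn had 0 counts in D3DMSO. The shares of all genes were 30.7% higher and 31.4% lower at D3, and 33.1% lower at D6. Their part in the values of Nrp1, Nrp2, Plxnd1, Robo4 and Unc5b was not tested. Robo4 and Unc5b did not have the order of the markers in their means. Robo4 was at 3.15 ± 0.316 CPM in D6RA, against 1.46 ± 0.438 CPM in D6DMSO, which was not called (adjusted p = 0.0592 by limma). Unc5b was lower in D3RA.

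The 2 class 3 ligands with this pattern were Sema3c and Sema3d. Sema3c was at 17.3, 13.7 and 12.3 CPM in D3RA, against 3.18, 2.26 and 2.79 CPM in D3DMSO. At D6 Sema3c was at 14.6, 13.5 and 14.9 CPM in D6RA, against 49.6, 44.7 and 47.7 CPM in D6DMSO. RA libraries were alike at both days, while those with DMSO were the lowest at D3 and the highest at D6, and the log2 fold changes were 2.37 ± 0.14 (adjusted p = 2.63e-10) and -1.72 ± 0.14 (adjusted p = 9.06e-09). Sema3d was at 4.55, 7.49 and 5.94 CPM in D3RA, against 2.35, 3.90 and 3.10 CPM in D3DMSO. At D6 Sema3d was at 1.92, 1.48 and 1.75 CPM in D6RA, against 9.21, 8.23 and 8.93 CPM in D6DMSO. The days were 0.94 ± 0.25 (adjusted p = 0.00348) and -2.35 ± 0.25 (adjusted p = 2.72e-07) on the log2 scale, and the D3 call was lost on thinning, in a range of 0.00156 to 0.0572 over 15 alternatives.

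Plxna2, a receptor of class 6 semaphorins and partner of neuropilins, was at 106, 105 and 124 CPM in D3RA, against 122, 246 and 239 CPM in D3DMSO, and the D3 libraries overlapped. At D6 Plxna2 was at 348, 336 and 338 CPM in D6RA, against 172, 186 and 199.996 CPM in D6DMSO. All treated groups were far above D0, at 4.10, 5.82 and 5.86 CPM, and the log2 fold change was -0.80 ± 0.20 (adjusted p = 0.00219) at D3 and 0.88 ± 0.20 (adjusted p = 8.84e-04) at D6. Plxna4, which pairs with neuropilins for Sema3a, was at 5.37, 3.91 and 10.5 CPM in D3RA, against 12.4, 19.1 and 18.3 CPM in D3DMSO. At D6 Plxna4 was at 39.9, 44.7 and 39.0 CPM in D6RA, against 23.4, 27.5 and 21.5 CPM in D6DMSO. The values were -1.41 ± 0.26 (adjusted p = 1.99e-04) at D3 and 0.77 ± 0.26 (adjusted p = 0.0162) at D6, and the D6 call was lost on thinning and without D6DMSO replicate 3 or D6RA replicate 2, in a range of 1.96e-06 to 0.204 over 15 alternatives. Sema7a, the lipid-anchored ligand of Plxnc1 and of integrins, was at 1.64, 2.93 and 2.28 CPM in D3RA, against 13.3, 11.49 and 17.3 CPM in D3DMSO. At D6 Sema7a was at 8.37, 8.93 and 8.99 CPM in D6RA, against 1.58, 2.86 and 1.75 CPM in D6DMSO. The groups did not overlap, with -2.56 ± 0.26 (adjusted p = 3.21e-07) at D3 and 2.12 ± 0.26 (adjusted p = 2.04e-06) at D6.

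**Figure D4:**
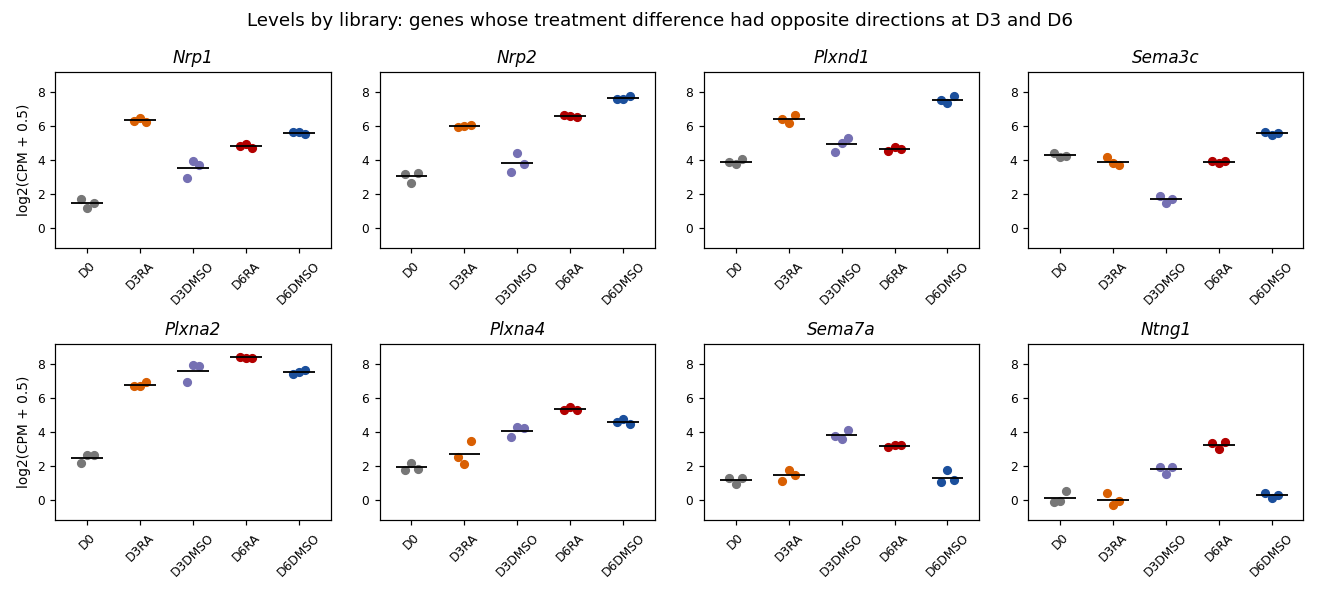
Level of 8 genes of opposite direction in each library as log2(CPM + 0.5), with a point for each of the 3 libraries of a group and a line at their mean. In the upper row (Nrp1, Nrp2, Plxnd1, Sema3c) RA is above DMSO at D3 and below it at D6, and in the lower row (Plxna2, Plxna4, Sema7a, Ntng1) the order of the means is the reverse, with overlap of the D3 libraries for Plxna2.

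The class 4 and class 6 ligands with opposite directions were Sema4a, Sema4f, Sema4g and Sema6c. Sema4a, at 0.546, 0.326 and 0 CPM, and Sema4f, at 0.546, 0.326 and 0 CPM, had 7 counts each over the 3 D3RA libraries, against 1.52, 1.23 and 1.55 CPM and 1.93, 2.67 and 2.94 CPM in D3DMSO. Their D3 calls (-1.90 ± 0.34 (adjusted p = 1.41e-04) and -2.66 ± 0.48 (adjusted p = 1.48e-04)) were lost on thinning, in ranges of 7.36e-05 to 0.332 over 15 alternatives and 1.19e-04 to 0.0785 over 14 alternatives. At D6, Sema4a was at 5.32 ± 0.492 CPM in D6RA, against 1.13 ± 0.196 CPM in D6DMSO and Sema4f at 2.23 ± 0.241 CPM in D6RA, against 0.720 ± 0.286 CPM in D6DMSO. Sema4g and Sema6c had D3 libraries that overlapped, with log2 fold changes of -0.76 ± 0.21 (adjusted p = 0.00517) and -0.37 ± 0.15 (adjusted p = 0.0467), while at D6 they were higher by 1.54 ± 0.21 (adjusted p = 6.90e-06) and 1.87 ± 0.15 (adjusted p = 1.34e-08). The D3 call of Sema6c was lost in 9 alternatives, in a range of 0.00202 to 0.772 over 15 alternatives, and its log2 fold change was -0.57 without D3RA replicate 1 and -0.16 without D3RA replicate 2. Ntng1, the one gene outside the semaphorin family, was at 0.820, 0.326 and 0.457 CPM in D3RA, against 3.31, 2.46 and 3.41 CPM in D3DMSO. At D6 Ntng1 was at 9.90, 7.42 and 10.1 CPM in D6RA, against 0.833, 0.588 and 0.744 CPM in D6DMSO. The log2 fold changes were -2.24 ± 0.34 (adjusted p = 2.14e-05) and 3.62 ± 0.34 (adjusted p = 5.29e-08), without overlap.

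Of the other plexins, most were higher with RA. Plxna3 was higher with RA by 0.51 and 1.28 on the log2 scale, Plxnb1 by 0.86 and 2.01, and Plxnc1 by 1.96 and 2.52. Plxna1 was called only at D6 (0.84 ± 0.12 (adjusted p = 1.23e-05)), and at D3 was at 75.3 ± 8.07 CPM in D3RA, against 74.8 ± 15.7 CPM in D3DMSO (adjusted p = 0.869). Plxnb2 was lower at both days (log2 fold changes -1.07 and -0.55).

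Across the 2 days, 29 genes were higher with RA at both (18.9% of all genes), and 9 lower at both (19.2% of all genes). The 29 include 5 of the 6 Slit and Robo genes other than Slit3, with Robo4 called only at D3. The 9 were Efna1, Epha1, Epha2, Ephb4, Plxnb2, Sema3e, Sema6a, Slit3 and Unc5b. Called at neither day were Efna5, Ephb3, Sema3a, Sema4d and Unc50 (5 genes, 18% of all genes).

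Set against undifferentiated cells, 37 of the 71 genes were higher and 16 lower in D3RA (35% and 33.9% of all genes), and 34 were higher and 17 lower in D3DMSO (28.2% and 27.8%). Medians of the 71 were 0.55 and 0.28, beside 0.01 and 0.02 over all genes. Both comparisons share the D0 libraries, so values are given side by side. Epha1 was at 1.29 ± 0.979 CPM in D3RA, 139 ± 21.0 in D3DMSO and 11.3 ± 0.729 in D0 (SD, n = 3 each), with log2 fold changes over D0 of -3.27 ± 0.37 (adjusted p = 6.14e-07) and 3.60 ± 0.37 (adjusted p = 4.31e-07) by limma, the first of them -2.64 without D3RA replicate 2. Sema6a was at 19.6 ± 3.63 CPM in D3RA, 272 ± 68.7 in D3DMSO and 73.2 ± 11.3 in D0, with -1.90 ± 0.17 (adjusted p = 2.91e-08) and 1.87 ± 0.17 (adjusted p = 8.77e-08). These genes lay below D0 with RA and above it with DMSO. Ephb2, at 109.7 ± 7.27, 14.9 ± 2.12 and 37.4 ± 1.31 CPM in the same groups, and Unc5a, at 64.0 ± 6.98, 2.94 ± 1.38 and 11.0006 ± 2.04 CPM, lay above D0 with RA and below it with DMSO. Their log2 fold changes were 1.55 with RA and -1.33 with DMSO for Ephb2, and 2.55 and -1.97 for Unc5a.

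Some genes were higher than D0 in both treatments. Plxna2 had log2 fold changes of 4.41 ± 0.20 (adjusted p = 8.43e-12) with RA and 5.20 ± 0.20 (adjusted p = 3.93e-12) with DMSO, Ntn1 of 3.48 ± 0.17 (adjusted p = 2.71e-11) and 2.85 ± 0.17 (adjusted p = 8.61e-10), and Efnb1 of 2.81 ± 0.13 (adjusted p = 9.47e-12) and 1.76 ± 0.13 (adjusted p = 7.98e-09). Slit2 was at 136 ± 4.05 CPM in D3RA, 94.5 ± 15.6 in D3DMSO and 21.7 ± 3.41 in D0. Slit3, although lower in D3RA than in D3DMSO, had 1.32 ± 0.28 (adjusted p = 5.72e-04) with RA and 5.22 ± 0.28 (adjusted p = 2.46e-10) with DMSO by limma. With voom weights the RA call of Slit3 was lost (adjusted p = 0.0641). Efna3 and Sema7a were called higher than D0 with DMSO only, with log2 fold changes of 2.37 and 2.93. Dcc had 2 counts over the 3 D0 libraries, and the ratio of D3RA to D0 was 549.7, with a 95% counting interval of 152 to 4548, which covers counting error only. Unc5b and Sema3e were lower in D3RA than in D0, with log2 fold changes of -2.37 ± 0.12 (adjusted p = 5.72e-11) and -2.22 ± 0.20 (adjusted p = 3.30e-08).

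Between the days, 51 of the 71 genes were higher and 9 lower in D6RA than in D3RA (37.2% and 32% of all genes), and 32 were higher and 19 lower in D6DMSO than in D3DMSO (28.3% and 28.1%). Medians were 0.97 and 0.20, beside 0.07 and 0.01 over all genes. Under quantile normalization the all-gene median of D6RA over D3RA moved to -0.06, 31.5% of all genes were higher and 37.2% lower, and 48 of the 71 were higher and 10 lower. Among the receptors, Dcc was higher in D6RA than in D3RA by a log2 fold change of 2.82 ± 0.42 (adjusted p = 1.78e-05), Robo2 by 2.10 ± 0.20 (adjusted p = 1.39e-07) and Unc5d by 3.37 ± 0.43 (adjusted p = 2.93e-06). Of the ligands, Slit1 was higher by 2.23 ± 0.40 (adjusted p = 1.09e-04), Sema3a by 2.53 ± 0.20 (adjusted p = 1.55e-08) and Rgma by 2.21 ± 0.15 (adjusted p = 3.29e-09). Lower in D6RA were Nrp1 (-1.52 ± 0.20 (adjusted p = 5.39e-06)), Plxnd1 (-1.80 ± 0.17 (adjusted p = 9.12e-08)) and Unc5a (-1.66 ± 0.27 (adjusted p = 3.79e-05)). Epha3 was at 205 ± 5.32 CPM in D6RA, against 242 ± 31.9 CPM in D3RA, where its adjusted p was 0.438.

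With DMSO, all 7 class 3 semaphorins, both neuropilins and Plxnd1 were called higher at D6 than at D3, as were 28.3% of all genes. The class 3 genes were grouped after their values were seen. Sema3g (log2 fold change 0.87 ± 0.35 (adjusted p = 0.0429)) lost its call in 7 alternatives, in a range of 0.0161 to 0.543 over 14 alternatives. Without D3DMSO replicate 1 its log2 fold change was 0.57. Sema3c was higher in D6DMSO than in D3DMSO by a log2 fold change of 4.08 ± 0.14 (adjusted p = 1.10e-12), Sema3b by 2.98 ± 0.39 (adjusted p = 7.18e-06) and Sema3a by 2.99 ± 0.20 (adjusted p = 4.66e-09), and Nrp2 was higher by 3.87 ± 0.20 (adjusted p = 2.24e-10) and Plxnd1 by 2.65 ± 0.17 (adjusted p = 2.21e-09). Unc5c, at 19.9 ± 5.41 CPM in D6DMSO and 1.31 ± 1.01 in D3DMSO, was higher by 4.05 ± 0.37 (adjusted p = 1.67e-07). Lower in D6DMSO were Epha1 (-3.16 ± 0.37 (adjusted p = 2.27e-06)), Sema7a (-2.79 ± 0.26 (adjusted p = 2.38e-07)) and Slit3 (-1.75 ± 0.28 (adjusted p = 6.90e-05)). Depth and mitochondrial share differed between the days for all of these values.

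D6RA had the highest mean for 39 of the 71 genes (54.9%), against 29.3% of all genes. In 34 of the 39 all D6RA libraries lay above all 12 others, as they did for 21.4% of all genes. D6DMSO was highest for 11 genes (18.9% of all genes), D3DMSO for 10 (12%), D3RA for 9 (16.1%) and D0 for 2 (23.8%), which were Sema4d and Sema6b. Sema4d was at 15.5, 18.2 and 20.0 CPM in D0 and between 4.72 and 11.4 CPM in the other libraries.

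Genes that carry guidance signals inside the cell were listed apart from the 71, with 37 of 39 in the table. Of these, 21 were higher and 8 lower in D3RA, and 22 were higher and 9 lower in D6RA, with median log2 fold changes of 0.47 and 0.51. Over all genes the shares were 30.7% higher and 31.4% lower at D3, and 32.6% and 33.1% at D6. Dpysl4, a collapsin response mediator that relays semaphorin signals, averaged 82.7 CPM in D3RA, against 6.61 CPM in D3DMSO (log2 fold change 3.63), and 283 CPM in D6RA, against 3.08 CPM in D6DMSO (log2 fold change 6.52). Dpysl3, of the same family, averaged 282 CPM in D3RA, against 37.1 CPM in D3DMSO (log2 fold change 2.93). Vav3, an exchange factor used by Eph receptors, averaged 35.5 CPM in D3RA, against 7.17 CPM in D3DMSO (log2 fold change 2.33). At D6 Pak3, a kinase below Rac, averaged 140.2 CPM in D6RA, against 4.80 CPM in D6DMSO (log2 fold change 4.89) and Crmp1 averaged 444 CPM in D6RA, against 21.2 CPM in D6DMSO (log2 fold change 4.39). Lower at D3 were Mical1, a plexin effector that oxidises actin, at 19.3 CPM in D3RA, against 47.9 CPM in D3DMSO (log2 fold change -1.29), and Vasp and Dock1, with log2 fold changes of -0.95 and -0.91. At D6 the lowest log2 fold changes among called genes were those of Mical2 (-2.26), Dock1 (-1.57) and Farp1 (-1.55).

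Of 22 measured genes on a list of other guidance and axon adhesion genes (23 in all), 15 were higher and 4 lower in D3RA, and 18 were higher and 2 lower in D6RA, with median log2 fold changes of 0.97 and 2.66, beside the same shares of all genes. Gap43, a growth cone protein, averaged 151 CPM in D3RA, against 1.17 CPM in D3DMSO (log2 fold change 6.92). Cntn1, an adhesion protein of axons, averaged 19.3 CPM in D3RA, against 0.780 CPM in D3DMSO (log2 fold change 4.53), and 63.3 CPM in D6RA, against 1.04 CPM in D6DMSO (log2 fold change 5.95). Flrt3, a ligand of Unc5 receptors, averaged 127 CPM in D3RA, against 10.8 CPM in D3DMSO (log2 fold change 3.57). At D6 the highest were Chl1, which averaged 204 CPM in D6RA, against 1.14 CPM in D6DMSO (log2 fold change 7.46), Cntn1 and Cntn2, another axonal adhesion protein, with 107 CPM in D6RA, against 1.97 CPM in D6DMSO (log2 fold change 5.74). The secreted factors Cxcl12, a chemokine, and Wnt5a were lower with RA at both days. Cxcl12 averaged 2.88 CPM in D3RA, against 14.7 CPM in D3DMSO (log2 fold change -2.27), and 1.57 CPM in D6RA, against 161 CPM in D6DMSO (log2 fold change -6.65). Wnt5a averaged 5.12 CPM in D3RA, against 30.7 CPM in D3DMSO (log2 fold change -2.49), and 23.2 CPM in D6RA, against 38.5 CPM in D6DMSO (log2 fold change -0.73). Gpc1, a proteoglycan, was lower at D3 and higher at D6, with log2 fold changes of -0.44 and 0.44.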

How the data were processed

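RNA values of 15 P19 libraries, 3 per group, were analysed. The series also has 18 chromatin samples, which are not analysed here. A stranded kit with ribosomal depletion was used on total RNA, and reads are single end, per the labels' protocols. The aligner STAR 2.6.0c, featureCounts, limma, edgeR, Trimmomatic 0.32 and the mm9 build are named, per the submitters' processing notes, with no word on which step made the table. The strand setting of the counting is not given in the sources used here, so overlapping antisense genes cannot be told apart from a gene.

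The deposited table holds log2 values of 14717 Ensembl IDs, 14228 of them matched to a symbol by ID. After undoing the log2, dividing by a constant per library and taking off 0.5, 100% of values were whole numbers within 0.05. The constant takes the lowest value of each library as a count of 0. These recovered counts, divided by library sizes that follow the deposited scale (with the geometric mean of the non-mitochondrial totals), gave the CPM of the text. CPM are not divided by gene length, so levels are compared between libraries and not between genes. The smallest scaled library had 2.19 M counts (D3RA) and the largest 31.9 M (D6RA), so low genes are least precise in D3RA.

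The deposited log2 values of all genes were fitted with limma 3.58.1 (R version 4.3.3) with trended variance, 1 coefficient per group and 10 residual degrees of freedom, and p-values were Benjamini-Hochberg adjusted over 14717 genes. Each gene has 1 estimate of spread from all 15 libraries, so its SE is the same at D3 and D6. Fitted with the compared groups alone, 3665 genes of the table were higher and 3674 lower in D3RA than in D3DMSO, against 4517 and 4619. For D6RA over D6DMSO the counts were 5648 and 5765, against 4802 and 4876. The code of the limma fit was run on simulated counts of independent libraries, with the same setting of spread for all genes. That run checks the code and not how well the fit suits these data. The 71 genes and the lists were chosen with earlier results of these data known. The rule of the text gave values in every library to a panel of 20 genes and, per treatment comparison, to the 6 most raised and 6 most reduced called genes at 5 CPM or more and without overlap, and named the 3 at each end of the other lists. Other genes with values in every library were added because they differ in direction between days or for their D0 level. Symbols of the rule with no row in the table (Epha6, Epha8, Ntn3, Plxnb3 and others) are not analysed here.

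Alternatives were quantile normalization, median-of-ratios scaling, a filter of 5 CPM in 3 libraries (12552 genes), an added count of 2 in proportion to library size, limma without the trend, voom weights, the compared groups alone, a replicate block, thinning to 2189364 counts, and leaving out each library. Libraries with the same replicate number deviated together in all 3 pairs of D3RA and D3DMSO (correlations 0.393, 0.128 and 0.194) and of D3DMSO and D0 (0.233, 0.114 and 0.383). D3RA and D0 had 0.157, 0.0767 and 0.138. Elsewhere both signs occurred, from -0.238 for D6RA and D3RA to 0.163 for D6DMSO and D0. Of all 30 pairs, 13 had a correlation above 0.1. Python 3.11.15 with pandas 2.3.3 was used for tables and matplotlib 3.10.9 for figures.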

Additional observations from a re-analysis of the deposited data

Results flagged for a closer look

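For 13 of the 71 genes the difference between treatments was called in opposite directions at D3 and D6, which holds for 7.78% of all genes (7 genes and 4.51% on thinning to the smallest library), and the interaction term of limma (the D6 log2 difference of RA over DMSO with the D3 one taken off, adjusted over 14717 genes) was called for each. These interaction calls nearly follow from the choice of the genes by opposite calls in the same fit, so they are no separate support. A negative value means that RA stood lower against DMSO at D6 than at D3.

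Among receptors of semaphorins, the value was -4.44 ± 0.24 (adjusted p = 2.52e-10) for Plxnd1, -3.60 ± 0.29 (adjusted p = 3.22e-08) for Nrp1 and -3.28 ± 0.29 (adjusted p = 8.57e-08) for Nrp2. In the other direction it was 2.18 ± 0.37 (adjusted p = 1.38e-04) for Plxna4 and 1.67 ± 0.28 (adjusted p = 1.10e-04) for Plxna2, a gene whose D3 libraries overlap.

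Among ligands, it was -4.09 ± 0.20 (adjusted p = 7.43e-11) for Sema3c and -3.29 ± 0.35 (adjusted p = 8.96e-07) for Sema3d. Positive values were found for Sema7a, at 4.69 ± 0.37 (adjusted p = 3.22e-08), Sema4f, at 4.33 ± 0.68 (adjusted p = 6.29e-05), and Sema4a, at 4.13 ± 0.49 (adjusted p = 2.75e-06). They were also found for Sema4g, at 2.30 ± 0.30 (adjusted p = 9.13e-06), and Sema6c, at 2.24 ± 0.22 (adjusted p = 3.46e-07). The largest of the 13 was that of Ntng1, at 5.86 ± 0.47 (adjusted p = 3.68e-08). Sema4a and Sema4f had 7 counts each over the 3 D3RA libraries, and Ntng1 had 11. None of the 13 interaction calls was lost under the alternatives run.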

How the results depend on the processing

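No count of called genes in the 7 comparisons moved by over 1.5 times under the alternatives run. For D3RA over D3DMSO the 38 higher ranged from 34 to 40 and the 21 lower from 18 to 21, for D6RA over D6DMSO the 42 from 40 to 44 and the 16 from 15 to 18, and for the interaction the 35 from 33 to 37 and the 15 from 11 to 16. For D3RA over D0 the 37 ranged from 35 to 38 and the 16 from 13 to 18, for D3DMSO over D0 the 34 from 28 to 34 and the 17 from 14 to 19, for D6RA over D3RA the 51 from 45 to 51 and the 9 from 9 to 12, and for D6DMSO over D3DMSO the 32 from 27 to 34 and the 19 from 14 to 23. Counts over both days were followed under the same alternatives, a choice made after seeing the data. The 13 genes of opposite direction were 7 on thinning, which leaves fewer counts, and 12 or 13 otherwise, also without each library in turn. The 29 higher with RA at both days ranged from 26 to 30 and the 9 lower from 9 to 10.

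With the replicate block, 39 of the 71 genes were higher and 21 lower in D3RA than in D3DMSO, and 42 higher and 16 lower in D6RA than in D6DMSO. The block changed the D3 call of Efna5 and no other call between treatments of a gene named for it. Correlations of the same number ran from -0.238 to 0.393 over 30 pairs of libraries, and 10 of 15 libraries correlated best with their own number.

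Of the genes called between treatments, 8 of 59 at D3 lost the call under 1 or more alternatives and 3 of 58 at D6, all of them on thinning, which leaves fewer counts. Of these, 3 at D3 (Ephb6, Sema3g and Sema6c) and 1 at D6 (Plxna4) also lost the call under other alternatives. None of the called genes turned direction. Values of uncalled genes did turn, at sizes of at most 0.476, and the cause was not tested. At D3, thinning gave -0.00733 for Efna4, -0.132 for Rgma, 0.367 for Sema3b, 0.00209 for Sema4c and -0.0341 for Unc50, and voom weights gave -0.00832 for Plxna1 and 0.0121 for Sema3b. Leaving out each library in turn gave -0.0759 to 0.191 for Plxna1, -0.0555 to 0.309 for Rgma, -0.349 to 0.138 for Sema3b, -0.18 to 0.0361 for Sema4c, -0.289 to 0.28 for Sema4d and -0.121 to 0.155 for Unc50. At D6, thinning gave -0.33 for Ntng2, 0.476 for Sema3g and 0.246 for Unc50, quantile normalization gave -0.0744 for Efna5 and -0.0116 for Sema4d, and leaving out each library gave -0.115 to 0.207 for Efna5 and -0.0243 to 0.248 for Ntng2. By median-of-ratios scaling, 347 of 355 group means lay within 1 SD of the value given.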
